A study of Mus musculus with 24 samples.

Results

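This report describes probes that were lower with lactogenic hormones in control HC11 cells and higher again in hormone-treated cells overexpressing mPINC. mPINC is the pregnancy-induced non-coding RNA of the mouse. HC11 cells are cultured mouse mammary epithelium, a Balb/c line of Comma-D descent. Members were chosen on the log2 values deposited by the authors. A probe had to be lower by at least 2 in siNegative cells with hormones than without them, and higher by at least 2 in LeGO-1/6 than in LeGO-GFP cells, which is 4-fold in each case. It also had to be well above background on all siNegative arrays without hormones and on all LeGO-1/6 arrays, a mark that removed no probe. Of 55681 probes, 70 met the rule. They were 14.1% of the 498 probes that met the hormone condition and 14% of the 500 that met the overexpression condition. A gene symbol was available for 59 of them, which named 57 genes, as Etv4 and Gzme each had 2 probes. One more probe was that of mPINC itself, and 10 had no symbol here.

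The study asked how knocking down or overexpressing mPINC changes gene expression in HC11 cells with and without hormones. In the knockdown arm, cells received 10 nM siRNA: a negative control (siNegative), siRNAs to its major splice forms only (siPINC1/6), or siRNAs to PINC as a whole (siPINC). Each was measured without differentiation agents (−LH, n = 2 arrays) and with hydrocortisone, insulin and prolactin as lactogenic hormones (+LH, n = 3 arrays). In the methods, prolactin and hydrocortisone were added to a priming medium without the epidermal growth factor (EGF) and calf serum of the growth medium. Insulin was in both media. The medium of the −LH arrays is not stated in the sources used here. Hormones and a change of EGF or serum thus cannot be told apart in any hormone difference below. In the overexpression arm all cells had hormones and carried a lentivirus, with n = 3 arrays per group. The virus held a GFP control (LeGO-GFP), the major splice forms of mPINC (LeGO-1/6), or a deletion mutant without the best conserved regions (LeGO-DCR). No array held cells free of both siRNA and virus, and no LeGO array was without hormones. In the methods, the transduced LeGO cells were expanded, aliquoted and frozen, with no cloning step described. Whether the arrays of a construct came from separate transductions is not stated. A difference between constructs thus cannot be told apart from one between transduced pools. The hormone time for the arrays is not given in the sources used here. RNA came from whole cultures, so fewer cells of a type and less RNA per cell cannot be told apart.

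HC11 cells grow under epidermal growth factor and, when this is withdrawn and lactogenic hormones are added, leave the cycle, form domes and make milk proteins. Ligands of the EGF receptor family such as amphiregulin and neuregulin act through the Ras-ERK cascade, whose outputs include the ETS factors Etv4 and Etv5 and the phosphatase Dusp4, which switches the kinases off again. Many secreted proteases, their inhibitors and inflammatory cytokines are further outputs of this cascade and of AP-1 in epithelial cells. These are textbook facts and not results of the arrays.

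All levels below are log2 processed signals, quantile normalized over the 24 arrays, so that a difference of 1 is 2-fold. They were fitted anew from the scanner files, and on this scale the hormone difference of the members in siNegative cells ran from -7.27 to -2.05 (median -3.10) and the LeGO-1/6 minus LeGO-GFP difference from 2.05 to 7.45 (median 3.01). On the deposited scale that chose them the ranges were -5.01 to -2.01 and 2.00 to 7.08. Both differences are fixed by the rule and carry no test. The probes just inside the hormone threshold were those of Rasa4 (-2.01), Sprr2h (-2.01) and Ptges3l (-2.01), and just outside it lay probes of Cd44 (-1.97), Ckap2l (-1.95) and Ctla2a (-1.94). At the overexpression threshold, Rad51ap1 (2.00), Ptges3l (2.01) and Nkain1 (2.02) were just inside and Nsl1 (1.99), Troap (1.97) and an intergenic probe on chromosome 17 (1.95) just outside.

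The arrays had between 24012 and 35763 probes well above background, the highest on LeGO-1/6 replicate 1, which also had 644 outlier spots, and without it the highest counts were 30726 and 280. Without that array, 68 of the 70 members still met the overexpression threshold on the deposited scale, with differences between 1.99 and 7.08. The scanner files place all −LH arrays, siNegative +LH replicate 1 and LeGO-GFP replicate 1 on 1 slide, the other siRNA +LH arrays on a second slide and the other LeGO arrays on the third. Within the first slide the hormone difference in siNegative cells, now with 1 +LH array, was at or below -2 for 68 members (range -5.06 to -1.83). Within the third slide the LeGO-1/6 difference from LeGO-GFP replicates 2 and 3 was at or above 2 for 69 members (range 1.97 to 7.15). In siPINC1/6 and siPINC cells all −LH arrays lay on the first slide and all +LH arrays on the second, so there hormone and slide cannot be told apart within those cells.

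The cells had epithelial markers: of 11 such genes measured, 10 were well above background on every array of every group. Of 18 macrophage and leukocyte markers, between 5 and 8 were well above background on all arrays of a group. The log2 of their summed signal lay between 14 and 14.1 in LeGO-GFP and between 13.8 and 13.9 in LeGO-1/6 cells. Ptprc, the pan-leukocyte marker, was well above background on none of the siNegative arrays and on at most 2 arrays of any group. The macrophage marker Csf1r was well above background on every array. Adgre1, also a macrophage marker, was so on every −LH and LeGO array and on 1 or 2 arrays of each siRNA +LH group. Of 11 fibroblast markers, 7 were well above background in both of these groups, with summed signals between 13.7 and 13.9 in LeGO-GFP and between 10.1 and 10.2 in LeGO-1/6 cells. The summed signal of 11 endothelial and adipocyte markers lay between 11.5 and 12.0 in LeGO-GFP and between 13.6 and 13.7 in LeGO-1/6 cells. A summed signal, always given here as the log2 of the sum, follows its brightest genes. For LeGO-1/6 minus LeGO-GFP, limma called 1 of the 11 fibroblast markers higher and 4 lower (median difference 0.02). Of the 11 endothelial and adipocyte markers 2 were called higher and 1 lower (median -0.09). Over all probes 14.5% were called higher and 15.8% lower. The part of these cell type markers in the members' values was not tested.

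The mPINC probe is a member itself, so its LeGO-1/6 and siNegative hormone differences were set by the rule. The mPINC probe read 7.36 and 7.64 in siNegative, 6.03 and 6.32 in siPINC1/6 and 6.45 and 6.25 in siPINC cells without hormones. With hormones it read 4.29, 4.76 and 5.15 in siNegative, 5.52, 5.37 and 4.73 in siPINC1/6 and 5.0, 4.87 and 4.77 in siPINC cells. The same probe stood at 6.16, 6.02 and 5.85 in LeGO-GFP, 13.48, 13.51 and 13.39 in LeGO-1/6 and 6.18, 6.05 and 6.0 in LeGO-DCR cells. Both knockdowns lay below siNegative without hormones, and LeGO-1/6 lay above every other group. With hormones the 3 siRNA groups overlapped, with siNegative the lowest mean, so this probe does not show the knockdown there, and 2 of 3 arrays in each were well above background. A second probe for the same RNA, which is no member, had means of 7.44, 6.33 and 6.28 in the siNegative, siPINC1/6 and siPINC −LH cells and of 13.4 in LeGO-1/6 cells. In LeGO-DCR cells the means of both probes (6.08 and 6.06) lay near those of LeGO-GFP cells (6.01 and 6.07). Where the probes lie on the transcript is not known here, so the LeGO-DCR transgene was not checked on these arrays. The study reported by RT-PCR and qPCR that the deletion mutant was overexpressed, at a level fairly like that of the major splice forms.

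**Figure D1:**
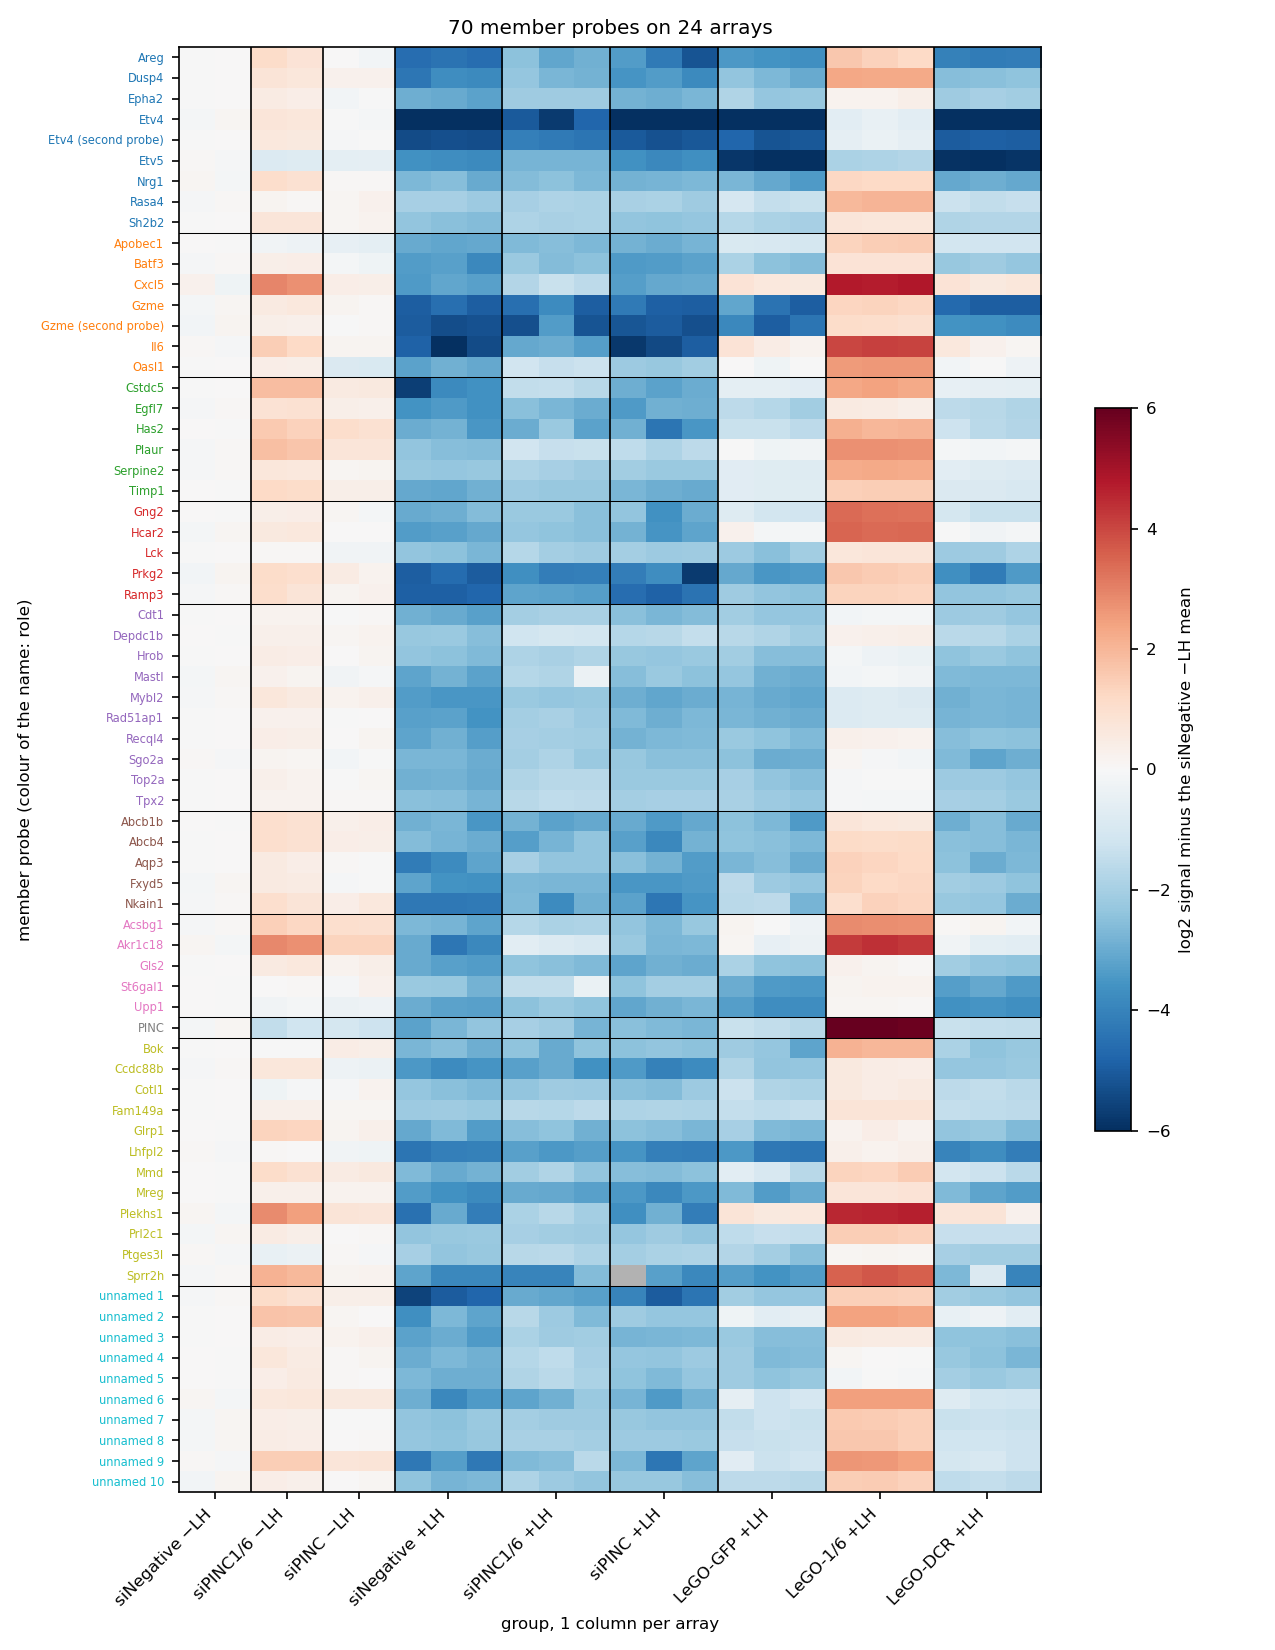
Level of the 70 member probes (rows, coloured by role) on 24 arrays (columns, by group), as log2 signal minus the siNegative −LH mean, with 1 outlier spot in grey. The siRNA +LH columns and the LeGO-GFP and LeGO-DCR columns are mostly blue, and the LeGO-1/6 columns lie near or above the −LH level for most rows.

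Whether these probes respond to hormones in the same way in cells that the rule did not use was tested on the 10 siPINC1/6 and siPINC arrays. All 70 members fell with hormones in siPINC1/6 cells (limma adjusted p under 0.05, over all probes), where 15.9% of the 55681 probes were called lower, and all 70 fell in siPINC cells, where 14.6% were. The median difference of the members was -2.95 in siPINC1/6 and -2.99 in siPINC cells, against 0.013 and 0.0072 over all probes. The smallest fall was that of the mPINC probe in siPINC1/6 cells (-0.97) and of Oasl1 in siPINC cells (-1.29). Cell type markers moved as well. The summed signal of the fibroblast markers lay between 9.07 and 9.18 without and between 12.6 and 12.8 with hormones in siPINC1/6 cells, and between 10.8 and 10.9 and between 12.4 and 12.6 in siPINC cells. That of 13 basal and myoepithelial markers lay between 17.7 and 17.8 without and between 16.4 and 16.5 with hormones in siPINC1/6 cells, and at 17.6 or 17.7 and between 16.2 and 16.3 in siPINC cells. By limma, 6 of 11 fibroblast markers rose and 2 fell in siPINC1/6 cells, and 5 rose and 2 fell in siPINC cells. Of the 13 basal and myoepithelial markers 2 rose and 7 fell in siPINC1/6 cells, and 1 rose and 7 fell in siPINC cells. Over all probes 14.1% rose in siPINC1/6 and 13.5% in siPINC cells. The part of these markers in the members' fall was not tested. For every member the +LH arrays lay wholly below the −LH arrays in both kinds of cells. With a term for the slide in a fit of all 24 arrays, 69 members were called lower in each, with St6gal1 lost in siPINC1/6 cells (-0.88, adjusted p = 0.208) and Sprr2h in siPINC cells (-3.02, adjusted p = 0.071). That slide term could be estimated only from the siNegative +LH and LeGO-GFP arrays, which the rule used. The fit with it is thus not independent of the rule.

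**Figure D2:**
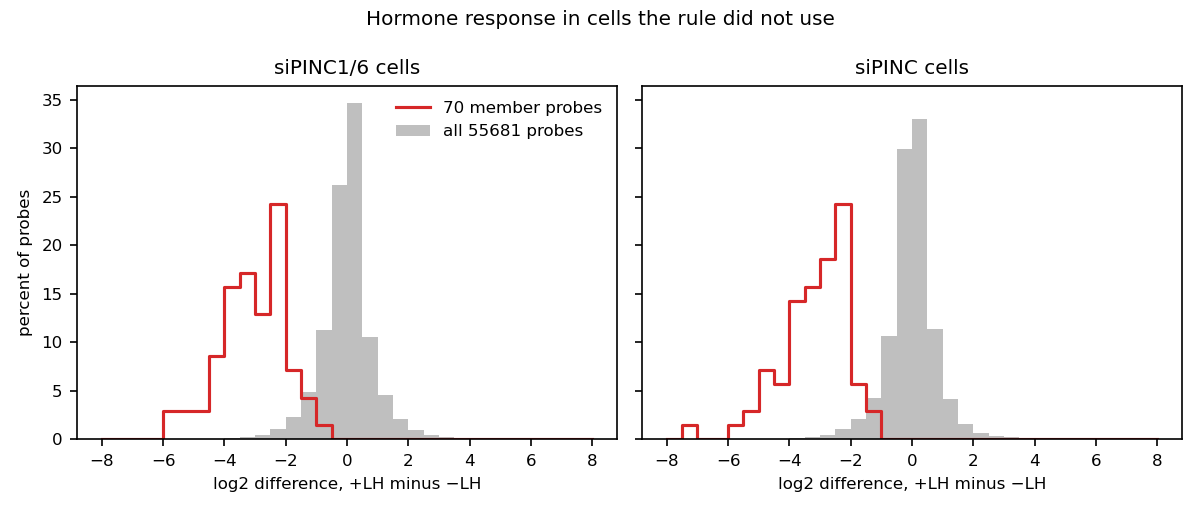
Share of probes (percent) by hormone difference (log2, +LH minus −LH, in steps of 0.5) in siPINC1/6 and siPINC cells, for the 70 members (line) and all 55681 probes (bars). The members lie to the left in both, with medians of -2.95 and -2.99.

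Among the members were 2 ligands of the EGF receptor family and several outputs of the ERK cascade. Areg encodes amphiregulin, a ligand of the EGF receptor and the main one of the developing mammary duct. Areg read 8.41 and 8.43 in siNegative, 9.51 and 9.24 in siPINC1/6 and 8.47 and 8.26 in siPINC cells without hormones. With hormones Areg read 3.85, 4.01 and 3.87 in siNegative, 5.98, 5.29 and 5.53 in siPINC1/6 and 5.07, 4.2 and 3.25 in siPINC cells. Areg stood at 4.97, 4.85 and 4.75 in LeGO-GFP, 10.03, 9.79 and 9.6 in LeGO-1/6 and 4.35, 4.22 and 4.27 in LeGO-DCR cells. No siNegative +LH array was well above background for Areg, and the LeGO-1/6 arrays stood above all others. Areg had a hormone difference of -3.77 (SE 0.48, adjusted p = 0.000756) in siPINC1/6 and -4.19 (SE 0.48, adjusted p = 0.00049) in siPINC cells. Nrg1 encodes neuregulin, a ligand of the ErbB3 and ErbB4 receptors. Nrg1 read 9.19 and 8.98 in siNegative, 10.16 and 9.99 in siPINC1/6 and 9.15 and 9.17 in siPINC cells without hormones. With hormones Nrg1 read 6.38, 6.53 and 6.08 in siNegative, 6.5, 6.61 and 6.37 in siPINC1/6 and 6.25, 6.32 and 6.37 in siPINC cells. Nrg1 stood at 6.34, 6.0 and 5.67 in LeGO-GFP, 10.32, 10.29 and 10.27 in LeGO-1/6 and 6.0, 6.14 and 6.0 in LeGO-DCR cells. The 3 siRNA +LH groups of Nrg1 overlapped, and the arrays above 10 were 1 siPINC1/6 −LH array and the 3 LeGO-1/6 arrays. Nrg1 had a hormone difference of -3.58 (SE 0.088, adjusted p = 5.54e-07) in siPINC1/6 and -2.85 (SE 0.088, adjusted p = 1.11e-06) in siPINC cells.

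The 250 bases before the annotated start of Areg are shown as the promoter of the receptor ligand among the members (RefSeq, GRCm38.p6, plus strand, chr5:91139349-91139598). Capitals mark, in order, the RBPJ motif, the reverse complement of the ETS motif and the TATA box, all described with the other promoters below.
Areg: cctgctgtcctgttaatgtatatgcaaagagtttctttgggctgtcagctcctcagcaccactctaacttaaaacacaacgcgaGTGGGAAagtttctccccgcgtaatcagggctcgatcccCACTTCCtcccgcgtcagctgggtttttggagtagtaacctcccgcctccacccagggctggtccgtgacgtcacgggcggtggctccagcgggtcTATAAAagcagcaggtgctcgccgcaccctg

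Dusp4 encodes a nuclear phosphatase that removes phosphate from ERK. Dusp4 read 9.59 and 9.65 in siNegative, 10.39 and 10.29 in siPINC1/6 and 9.87 and 9.86 in siPINC cells without hormones. With hormones Dusp4 read 5.27, 5.9 and 5.8 in siNegative, 7.31, 6.87 and 6.78 in siPINC1/6 and 6.08, 6.25 and 5.79 in siPINC cells. Dusp4 stood at 7.26, 6.95 and 6.61 in LeGO-GFP, 11.96, 11.88 and 11.89 in LeGO-1/6 and 7.08, 7.1 and 7.19 in LeGO-DCR cells. Every hormone-treated array other than those of LeGO-1/6 lay below 8, and the LeGO-1/6 arrays lay above the −LH arrays. Dusp4 had a hormone difference of -3.35 (SE 0.18, adjusted p = 1.01e-05) in siPINC1/6 and -3.82 (SE 0.18, adjusted p = 6.3e-06) in siPINC cells.

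Etv4 encodes an ETS transcription factor of the PEA3 group and had 2 member probes. The brighter Etv4 probe read 11.81 and 11.88 in siNegative, 12.5 and 12.42 in siPINC1/6 and 11.76 and 11.82 in siPINC cells without hormones. With hormones this probe read 6.5, 6.58 and 6.51 in siNegative, 7.73, 7.59 and 7.48 in siPINC1/6 and 6.8, 6.64 and 6.75 in siPINC cells. The brighter probe stood at 7.08, 6.65 and 6.77 in LeGO-GFP, 11.31, 11.45 and 11.32 in LeGO-1/6 and 6.85, 6.97 and 6.89 in LeGO-DCR cells. It was well above background throughout, and LeGO-1/6 cells came close to the −LH level without reaching it. The dimmer Etv4 probe read 9.34 and 9.53 in siNegative, 10.18 and 10.12 in siPINC1/6 and 9.43 and 9.32 in siPINC cells without hormones. With hormones the dimmer probe read 2.36, 2.08 and 2.06 in siNegative, 4.38, 3.71 and 4.7 in siPINC1/6 and 2.07, 2.01 and 2.0 in siPINC cells. This dimmer probe stood at 2.28, 2.23 and 3.01 in LeGO-GFP, 8.81, 8.98 and 8.81 in LeGO-1/6 and 2.95, 2.11 and 2.94 in LeGO-DCR cells. No siNegative +LH, siPINC +LH, LeGO-GFP or LeGO-DCR array had it well above background. The brighter probe had a hormone difference of -4.86 (SE 0.086, adjusted p = 2.15e-07) in siPINC1/6 and -5.06 (SE 0.086, adjusted p = 2.27e-07) in siPINC cells, and the dimmer one fell at least 28.6-fold in siPINC cells. An at least value sets the bright group against the lowest signal that counts as well above background on each dim array.

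Etv5, the closest relative of Etv4, was the member with the lowest LeGO-1/6 level relative to siNegative −LH cells. Etv5 read 13.54 and 13.36 in siNegative, 12.61 and 12.69 in siPINC1/6 and 12.87 and 12.92 in siPINC cells without hormones. With hormones Etv5 read 9.83, 9.74 and 9.62 in siNegative, 10.64, 10.66 and 10.64 in siPINC1/6 and 9.82, 9.57 and 9.76 in siPINC cells. Etv5 stood at 7.59, 7.12 and 7.42 in LeGO-GFP, 11.54, 11.61 and 11.68 in LeGO-1/6 and 7.52, 7.34 and 7.58 in LeGO-DCR cells. LeGO-GFP and LeGO-DCR cells lay below all siRNA +LH arrays, and LeGO-1/6 cells lay between the siRNA +LH and −LH levels. Etv5 had a hormone difference of -2.0 (SE 0.081, adjusted p = 2.77e-06) in siPINC1/6 and -3.18 (SE 0.081, adjusted p = 6.41e-07) in siPINC cells. The fall differed between them by 1.18 (SE 0.11, adjusted p = 0.00798), and Etv5 was the 1 member called in this interaction test, in which 0.736% of all probes were called with the siPINC1/6 response the higher and 0.445% with it the lower. At an unadjusted p under 0.05, 23 members passed. Without siPINC1/6 +LH replicate 1 or 2, 2 members were called.

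Epha2 encodes a receptor tyrosine kinase for ephrins. Epha2 read 11.36 and 11.39 in siNegative, 11.86 and 11.77 in siPINC1/6 and 11.22 and 11.36 in siPINC cells without hormones. With hormones Epha2 read 8.43, 8.37 and 8.18 in siNegative, 9.23, 9.23 and 9.23 in siPINC1/6 and 8.52, 8.43 and 8.65 in siPINC cells. Epha2 stood at 9.56, 9.05 and 9.08 in LeGO-GFP, 11.58, 11.6 and 11.71 in LeGO-1/6 and 9.24, 9.4 and 9.29 in LeGO-DCR cells. LeGO-1/6 lay within the range of the −LH arrays for this receptor, while the other hormone-treated groups stayed below 10. Epha2 had a hormone difference of -2.59 (SE 0.081, adjusted p = 1.08e-06) in siPINC1/6 and -2.76 (SE 0.081, adjusted p = 9.18e-07) in siPINC cells. The remaining members of this group were Rasa4, which encodes a Ras GTPase-activating protein, and Sh2b2, an adaptor of tyrosine kinase receptors. Rasa4 averaged 9.92 ± 0.12 (SD, n = 2) in siNegative −LH, 7.87 ± 0.11 (n = 3) in siNegative +LH and 11.94 ± 0.052 in LeGO-1/6 cells. Sh2b2 averaged 10.57 ± 0.024, 8.06 ± 0.12 and 11.27 ± 0.033 in the same groups.

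**Figure D3:**
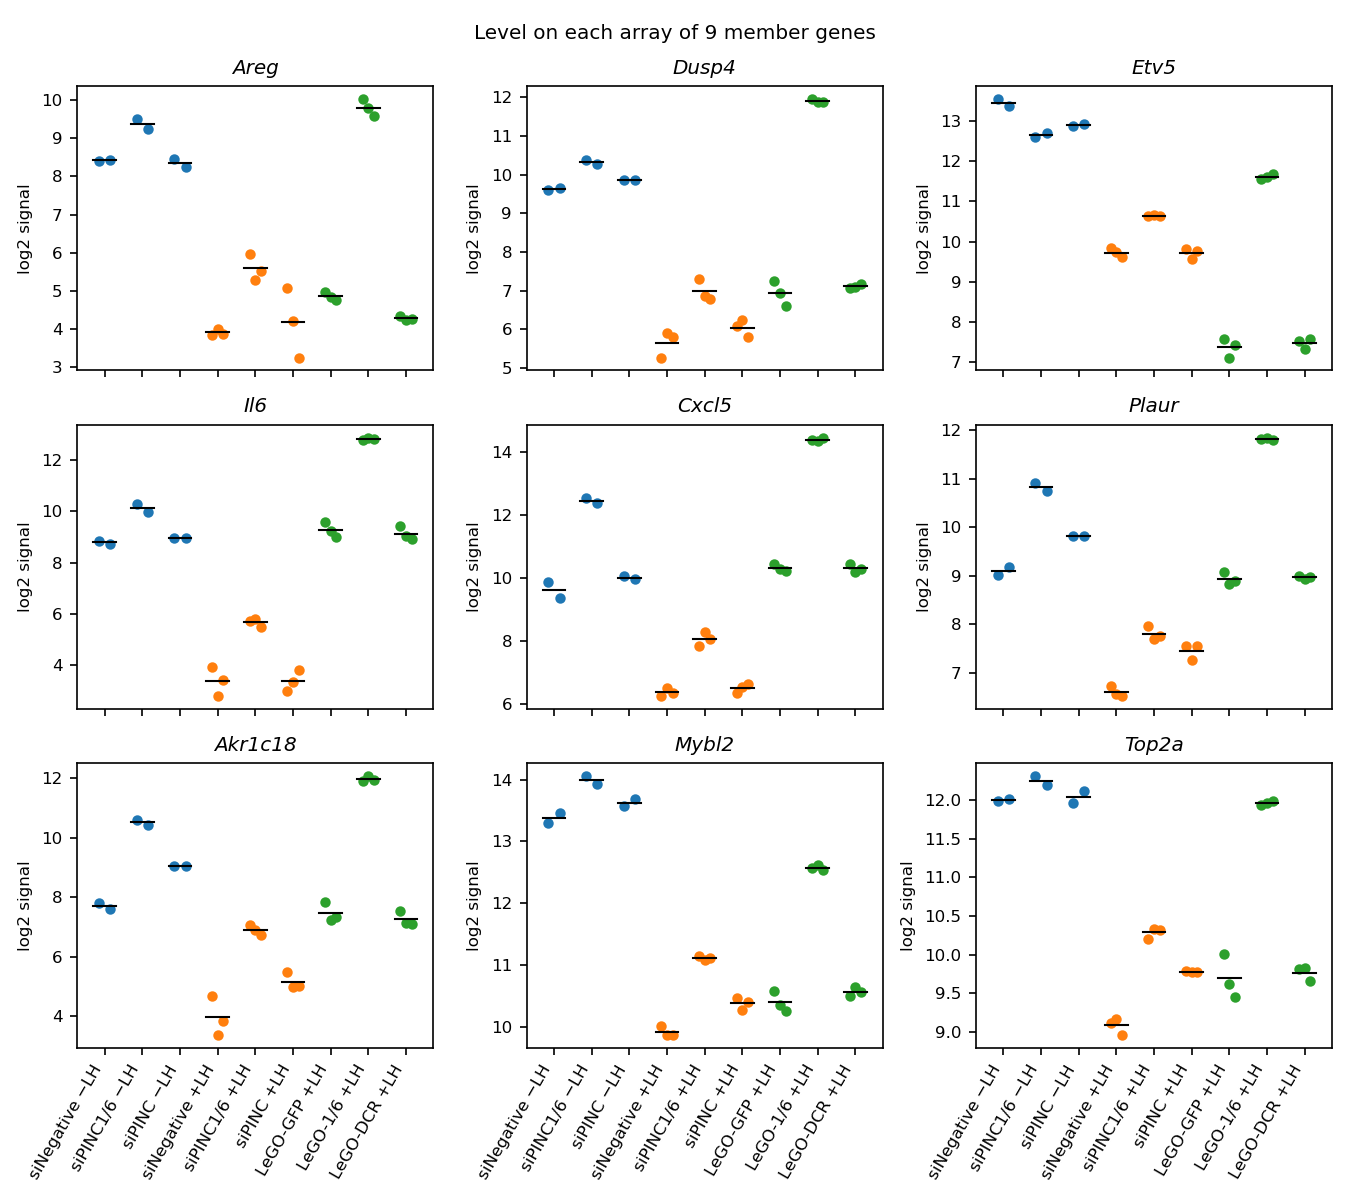
Level (log2 signal) of 9 member genes on each of the 24 arrays (points) by group, with the group mean (bar); blue are siRNA −LH, orange siRNA +LH and green LeGO +LH arrays. LeGO-1/6 lies above LeGO-GFP and LeGO-DCR for all 9, and for Il6 and Cxcl5 the LeGO-GFP level is near or above the siNegative −LH level.

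Cytokine and defence genes made up the next group. Il6 encodes interleukin-6, an inflammatory cytokine that signals through gp130 and STAT3. Il6 read 8.84 and 8.74 in siNegative, 10.27 and 9.98 in siPINC1/6 and 8.94 and 8.97 in siPINC cells without hormones. With hormones Il6 read 3.95, 2.8 and 3.44 in siNegative, 5.73, 5.81 and 5.51 in siPINC1/6 and 3.0, 3.37 and 3.82 in siPINC cells. Il6 stood at 9.58, 9.25 and 8.99 in LeGO-GFP, 12.78, 12.87 and 12.83 in LeGO-1/6 and 9.44, 9.04 and 8.92 in LeGO-DCR cells. LeGO-GFP cells had Il6 above the siNegative −LH level, and at least 27.4-fold above siNegative +LH cells, which were not well above background. Il6 had a hormone difference of -4.44 (SE 0.23, adjusted p = 7.73e-06) in siPINC1/6 cells and fell at least 21.4-fold in siPINC cells (adjusted p = 3.32e-06). Cxcl5 encodes a chemokine that attracts neutrophils. Cxcl5 read 9.87 and 9.37 in siNegative, 12.54 and 12.36 in siPINC1/6 and 10.04 and 9.96 in siPINC cells without hormones. With hormones Cxcl5 read 6.24, 6.5 and 6.35 in siNegative, 7.85, 8.29 and 8.04 in siPINC1/6 and 6.33, 6.53 and 6.61 in siPINC cells. Cxcl5 stood at 10.44, 10.28 and 10.23 in LeGO-GFP, 14.36, 14.34 and 14.45 in LeGO-1/6 and 10.44, 10.19 and 10.29 in LeGO-DCR cells. Here too the LeGO-GFP arrays lay above the siNegative −LH arrays, and siPINC1/6 lay above siNegative and siPINC in both hormone states. Cxcl5 had a hormone difference of -4.39 (SE 0.14, adjusted p = 1.28e-06) in siPINC1/6 and -3.51 (SE 0.14, adjusted p = 3.18e-06) in siPINC cells.

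Oasl1 belongs to the interferon-induced 2′-5′ oligoadenylate synthetase-like family. Oasl1 read 8.39 and 8.43 in siNegative, 8.8 and 8.77 in siPINC1/6 and 7.53 and 7.49 in siPINC cells without hormones. With hormones Oasl1 read 5.19, 5.55 and 5.36 in siNegative, 7.24, 7.03 and 7.14 in siPINC1/6 and 6.22, 6.12 and 6.32 in siPINC cells. Oasl1 stood at 8.46, 8.17 and 8.38 in LeGO-GFP, 10.96, 11 and 10.99 in LeGO-1/6 and 8.25, 8.38 and 8.12 in LeGO-DCR cells. In siPINC cells without hormones Oasl1 lay below both other −LH groups. Oasl1 had a hormone difference of -1.65 (SE 0.083, adjusted p = 7.26e-06) in siPINC1/6 and -1.29 (SE 0.083, adjusted p = 2.63e-05) in siPINC cells. Of 18 measured genes of the interferon list, Oasl1 included, 14 rose with hormones and 1 fell in siPINC1/6 cells, where 14.1% of all probes were called higher. Gzme encodes a granzyme, a serine protease, and belongs to a cluster of near-identical genes that its probes may not separate. The brighter Gzme probe read 7.16 and 7.52 in siNegative, 7.7 and 7.66 in siPINC1/6 and 7.31 and 7.39 in siPINC cells without hormones. With hormones this Gzme probe read 2.33, 2.04 and 2.09 in siNegative, 2.04, 3.98 and 2.14 in siPINC1/6 and 2.21, 2.35 and 2.06 in siPINC cells. The brighter Gzme probe stood at 3.48, 2.38 and 2.95 in LeGO-GFP, 8.43, 8.4 and 8.31 in LeGO-1/6 and 3.74, 3.7 and 3.55 in LeGO-DCR cells. Only the −LH and LeGO-1/6 arrays and 1 LeGO-DCR array were well above background. The other Gzme probe read 6.71 and 6.96 in siNegative, 7.39 and 7.47 in siPINC1/6 and 6.98 and 6.89 in siPINC cells without hormones. With hormones the other Gzme probe read 1.9, 2.31 and 1.88 in siNegative, 2.3, 3.05 and 1.88 in siPINC1/6 and 2.61, 1.93 and 1.88 in siPINC cells. The other Gzme probe stood at 3.72, 2.41 and 1.89 in LeGO-GFP, 8.12, 8.15 and 8.08 in LeGO-1/6 and 2.18, 1.89 and 1.88 in LeGO-DCR cells. It was well above background in the −LH and LeGO-1/6 cells and nowhere else. The 2 probes fell with hormones at least 10.3-fold and 8.89-fold in siPINC1/6 cells and at least 7.04-fold and 5.27-fold in siPINC cells, with differences that passed the test in each case. Batf3, an AP-1 family factor of dendritic cells, averaged 8.8 ± 0.083, 5.31 ± 0.33 and 9.62 ± 0.02 (SD) in siNegative −LH, siNegative +LH and LeGO-1/6 cells, and Apobec1, a cytidine deaminase that edits RNA, 10.64 ± 0.038, 7.57 ± 0.053 and 12.08 ± 0.10.

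For comparison with Areg, the 250 bases before the start of Il6 (RefSeq, GRCm38.p6, plus strand, chr5:30012864-30013113) hold 1 AP-1 motif, in capitals, at their far end.
Il6: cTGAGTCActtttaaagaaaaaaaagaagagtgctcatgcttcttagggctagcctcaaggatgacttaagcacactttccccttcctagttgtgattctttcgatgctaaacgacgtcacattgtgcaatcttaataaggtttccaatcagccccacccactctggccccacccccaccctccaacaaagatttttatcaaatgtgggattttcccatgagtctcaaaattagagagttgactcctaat

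Members that act on the matrix or on extracellular proteolysis lay above the siNegative −LH level in LeGO-1/6 cells, by a median of 2.14 over 6 probes. For the same probes LeGO-GFP cells lay above siNegative +LH cells by a median of 2.03. Plaur encodes the urokinase receptor. Plaur read 9.0 and 9.19 in siNegative, 10.9 and 10.74 in siPINC1/6 and 9.81 and 9.81 in siPINC cells without hormones. With hormones Plaur read 6.72, 6.56 and 6.51 in siNegative, 7.95, 7.7 and 7.76 in siPINC1/6 and 7.56, 7.25 and 7.54 in siPINC cells. Plaur stood at 9.07, 8.83 and 8.88 in LeGO-GFP, 11.82, 11.84 and 11.79 in LeGO-1/6 and 8.99, 8.94 and 8.98 in LeGO-DCR cells. The 3 −LH groups did not overlap for Plaur, with siPINC1/6 the highest. Plaur had a hormone difference of -3.02 (SE 0.12, adjusted p = 2.58e-06) in siPINC1/6 and -2.36 (SE 0.12, adjusted p = 8.35e-06) in siPINC cells. Serpine2, also called protease nexin-1, inhibits thrombin and urokinase. Serpine2 read 9.87 and 9.97 in siNegative, 10.6 and 10.53 in siPINC1/6 and 10.05 and 10.07 in siPINC cells without hormones. With hormones Serpine2 read 7.67, 7.62 and 7.62 in siNegative, 8.08, 7.92 and 7.8 in siPINC1/6 and 7.84, 7.7 and 7.7 in siPINC cells. Serpine2 stood at 9.22, 9.17 and 9.16 in LeGO-GFP, 12.13, 12.17 and 12.14 in LeGO-1/6 and 9.3, 9.12 and 9.1 in LeGO-DCR cells. LeGO-GFP and LeGO-DCR cells lay between the siRNA +LH and −LH levels for this inhibitor. Serpine2 had a hormone difference of -2.63 (SE 0.092, adjusted p = 1.63e-06) in siPINC1/6 and -2.31 (SE 0.092, adjusted p = 2.79e-06) in siPINC cells. Timp1 encodes a tissue inhibitor of metalloproteinases. Timp1 read 12.36 and 12.35 in siNegative, 13.55 and 13.46 in siPINC1/6 and 12.72 and 12.7 in siPINC cells without hormones. With hormones Timp1 read 9.29, 9.25 and 9.46 in siNegative, 10.2, 10.06 and 10.06 in siPINC1/6 and 9.62, 9.41 and 9.32 in siPINC cells. Timp1 stood at 11.69, 11.64 and 11.62 in LeGO-GFP, 13.78, 13.85 and 13.85 in LeGO-1/6 and 11.47, 11.47 and 11.4 in LeGO-DCR cells. Every hormone-treated array outside LeGO-1/6 lay below the −LH arrays, and LeGO-1/6 lay above them. Timp1 had a hormone difference of -3.4 (SE 0.10, adjusted p = 8.17e-07) in siPINC1/6 and -3.26 (SE 0.10, adjusted p = 9.1e-07) in siPINC cells. Has2, a hyaluronan synthase, averaged 7.89 ± 0.028, 4.78 ± 0.33 and 9.94 ± 0.092 (SD) in siNegative −LH, siNegative +LH and LeGO-1/6 cells. Egfl7, a secreted protein best known from endothelium, averaged 8.57 ± 0.10, 5.04 ± 0.12 and 9.03 ± 0.076. Cstdc5, of the stefin A family of cysteine protease inhibitors, averaged 7.5 ± 0.048, 3.13 ± 1.1 and 9.83 ± 0.073, and its probe may read close relatives.

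The Plaur promoter (RefSeq, GRCm38.p6, plus strand, chr7:24462233-24462482) is shown because Plaur is a known AP-1 target, and it held 1 AP-1 motif, in capitals, within 100 bases of the start.
Plaur: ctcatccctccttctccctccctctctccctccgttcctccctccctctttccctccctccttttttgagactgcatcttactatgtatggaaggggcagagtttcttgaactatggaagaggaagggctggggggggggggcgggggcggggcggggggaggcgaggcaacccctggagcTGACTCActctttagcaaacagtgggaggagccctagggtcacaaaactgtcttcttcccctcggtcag
The motifs below were searched on both strands in the RefSeq windows of 250 bases before to 50 bases after each start, which were found for 42 of the 57 member genes (52 windows). The AP-1 motif TGANTCA was in 8 of the 52 windows (15.4%) and in 7.81% of all 32851 windows, and the member genes with it were St6gal1, Gng2, Plaur, Upp1, Il6, Glrp1 and Sprr2h. The other motifs were the STAT motif TTCNNNGAA (7.69% against 8.3%), the TEAD motif GGAATG (17.3% against 14.7%), the RBPJ motif GTGGGAA (1.92% against 6.38%), the TATA box TATAAA (11.5% against 13.6%) and the ETS motif GGAAGTG (13.5% against 11%). The motifs may overlap each other, and a match is a run of letters and not a site shown to be used.

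The 10 members of the cell cycle and DNA replication did not rise above the −LH level in LeGO-1/6 cells by more than 0.31. They were Cdt1, which licenses replication origins, the E2F target Mybl2, the topoisomerase Top2a, the spindle factor Tpx2, the mitotic kinase Mastl, the cohesin protector Sgo2a, the repair genes Rad51ap1, Recql4 and Hrob, and Depdc1b. Top2a read 11.98 and 12.01 in siNegative, 12.3 and 12.2 in siPINC1/6 and 11.96 and 12.11 in siPINC cells without hormones. With hormones Top2a read 9.12, 9.17 and 8.96 in siNegative, 10.2, 10.34 and 10.32 in siPINC1/6 and 9.78, 9.78 and 9.78 in siPINC cells. Top2a stood at 10.01, 9.62 and 9.46 in LeGO-GFP, 11.93, 11.97 and 11.99 in LeGO-1/6 and 9.81, 9.83 and 9.66 in LeGO-DCR cells. The LeGO-1/6 arrays of Top2a lay at the siNegative −LH level, and the 3 siRNA +LH groups did not overlap, in the order siNegative, siPINC, siPINC1/6. Over the 10 probes, the LeGO-1/6 mean differed from the siNegative −LH mean by a median of -0.11 (range -0.81 to 0.31). The median was 0.19 for the enzymes, 0.70 for growth factor signalling, 1.44 for the cytokine and defence group and 2.14 for the matrix group. These cells also differ in virus and siRNA. Between LeGO-GFP and siNegative +LH cells the median difference was 0.48 for the cell cycle, 0.97 for the enzymes and 0.63 for growth factor signalling. It was 2.09 for the cytokine and defence group and 2.03 for the matrix group. The part of this offset in the order of the roles was not tested. The hormone differences of the 10 ran from -2.88 to -1.43 in siPINC1/6 and from -3.25 to -1.76 in siPINC cells, and Mybl2 had the largest in both. Mastl in siPINC1/6 +LH cells rested on unequal arrays (6.52, 6.44 and 7.9).

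The lists below are read beside the share of all probes called: 15.9% lower and 14.1% higher in siPINC1/6 cells, and 14.6% and 13.5% in siPINC cells. Of 32 genes listed for cell cycle and DNA replication, of which Top2a is the only member, 30 fell with hormones and none rose in siPINC1/6 cells (median -1.72), and the counts were the same in siPINC cells (median -1.94). Ccne1, the cyclin that starts S phase, had hormone differences of -2.89 in siPINC1/6 and -3.54 in siPINC cells, and the replicative helicase subunit Mcm5 of -2.31 and -2.90. Of 12 genes listed as ERK feedback and ETS targets, 3 of them members, 6 fell and 1 rose in each kind of cell. Beside the members, Spred2, an inhibitor of Ras signalling, fell by 1.96 in siPINC1/6 cells and Dusp6, an ERK phosphatase, fell by 2.47 in siPINC cells. Of 15 EGF receptor family genes and ligands, 2 of them members, 6 fell and 2 rose in siPINC1/6 cells (median -0.19). In siPINC cells 6 fell and 4 rose (median 0.014). Of 24 matrix proteases and inhibitors, 3 of them members, 15 fell and 3 rose in siPINC1/6 cells. In siPINC cells 13 fell and 3 rose. Of 30 chemokines and cytokines, 2 of them members, 11 fell and 6 rose in siPINC1/6 cells. In siPINC cells 7 fell and 6 rose. The members in these lists were chosen for a hormone fall in siNegative cells and all fell here. Among 16 AP-1 and immediate early genes, none of them a member, 3 fell and 6 rose in siPINC1/6 cells.

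Receptors, kinases and transporters made up a further group. Ramp3 encodes a protein that turns the calcitonin receptor-like receptor into an adrenomedullin receptor. Ramp3 read 10.46 and 10.63 in siNegative, 11.61 and 11.33 in siPINC1/6 and 10.71 and 10.79 in siPINC cells without hormones. With hormones Ramp3 read 5.67, 5.67 and 5.8 in siNegative, 7.39, 7.34 and 7.24 in siPINC1/6 and 5.95, 5.68 and 6.14 in siPINC cells. Ramp3 stood at 8.39, 8.19 and 8.1 in LeGO-GFP, 11.88, 11.87 and 11.83 in LeGO-1/6 and 8.17, 8.17 and 8.26 in LeGO-DCR cells. The siPINC1/6 arrays lay above both other siRNA groups in each hormone state. Ramp3 had a hormone difference of -4.14 (SE 0.14, adjusted p = 1.62e-06) in siPINC1/6 and -4.83 (SE 0.14, adjusted p = 9.77e-07) in siPINC cells. Prkg2 encodes the membrane-bound cGMP-dependent protein kinase. Prkg2 read 8.15 and 8.52 in siNegative, 9.43 and 9.32 in siPINC1/6 and 8.82 and 8.57 in siPINC cells without hormones. With hormones Prkg2 read 3.39, 3.7 and 3.36 in siNegative, 4.66, 4.17 and 4.22 in siPINC1/6 and 4.21, 4.6 and 2.57 in siPINC cells. Prkg2 stood at 5.27, 4.85 and 4.95 in LeGO-GFP, 9.93, 9.86 and 9.78 in LeGO-1/6 and 4.66, 4.16 and 4.93 in LeGO-DCR cells. Prkg2 was not well above background on any siNegative or siPINC +LH array, and it had a hormone difference of -5.03 (SE 0.55, adjusted p = 0.000318) in siPINC1/6 cells and fell at least 17.9-fold in siPINC cells. Hcar2, the niacin receptor, averaged 8.44 ± 0.15, 5.21 ± 0.14 and 11.89 ± 0.038 (SD) in siNegative −LH, siNegative +LH and LeGO-1/6 cells, and Gng2, a G protein gamma subunit, 7.15 ± 0.056, 4.3 ± 0.22 and 10.47 ± 0.063. Lck, a Src family kinase of T cells, averaged 7.82 ± 0.026, 5.3 ± 0.21 and 8.54 ± 0.037. The transport genes were the export pumps Abcb1b and Abcb4, the water and glycerol channel Aqp3, the ion pump regulator Fxyd5 and Nkain1, and their LeGO-1/6 means lay between 0.66 and 1.29 above siNegative −LH.

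Of the enzymes, Akr1c18 encodes the aldo-keto reductase that converts progesterone to an inactive product. Akr1c18 read 7.81 and 7.6 in siNegative, 10.6 and 10.44 in siPINC1/6 and 9.05 and 9.07 in siPINC cells without hormones. With hormones Akr1c18 read 4.68, 3.36 and 3.83 in siNegative, 7.05, 6.88 and 6.73 in siPINC1/6 and 5.46, 4.97 and 5.0 in siPINC cells. Akr1c18 stood at 7.83, 7.23 and 7.34 in LeGO-GFP, 11.9, 12.07 and 11.96 in LeGO-1/6 and 7.52, 7.14 and 7.09 in LeGO-DCR cells. The −LH arrays fell into 3 separate levels, with siPINC1/6 the highest and siNegative the lowest, and the order was the same with hormones. Akr1c18 had a hormone difference of -3.63 (SE 0.17, adjusted p = 4.45e-06) in siPINC1/6 and -3.91 (SE 0.17, adjusted p = 3.75e-06) in siPINC cells. Upp1, a uridine phosphorylase, averaged 10.03 ± 0.0049, 6.89 ± 0.13 and 10.12 ± 0.032 in siNegative −LH, siNegative +LH and LeGO-1/6 cells, and Gls2, a glutaminase, 8.98 ± 0.058, 5.76 ± 0.16 and 9.14 ± 0.081. Acsbg1, an acyl-CoA synthetase, averaged 8.63 ± 0.13, 5.74 ± 0.24 and 11.43 ± 0.034, and the sialyltransferase St6gal1 8.06 ± 0.048, 5.62 ± 0.33 and 8.25 ± 0.015. In siPINC1/6 +LH cells the St6gal1 arrays read 6.56, 6.58 and 7.66.

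Other named members were Sprr2h, Plekhs1, Lhfpl2, Bok, Ccdc88b, Cotl1, Fam149a, Glrp1, Mmd, Mreg, Prl2c1 and Ptges3l. Sprr2h belongs to the small proline-rich proteins of the cornified envelope, whose members are close in sequence. Sprr2h read 6.02 and 6.13 in siNegative, 8.14 and 8.01 in siPINC1/6 and 6.24 and 6.31 in siPINC cells without hormones. With hormones Sprr2h read 2.92, 2.21 and 2.18 in siNegative, 2.1, 2.11 and 3.46 in siPINC1/6 and 2.83 and 2.22 in siPINC cells. Sprr2h stood at 2.75, 2.5 and 2.72 in LeGO-GFP, 9.6, 9.81 and 9.67 in LeGO-1/6 and 3.39, 5.19 and 2.1 in LeGO-DCR cells. One siPINC +LH spot of Sprr2h was an outlier and left out, so that 9 arrays entered its fit. It fell with hormones at least 13.9-fold in siPINC1/6 cells (adjusted p = 0.000167). Plekhs1 encodes a pleckstrin homology domain protein. Plekhs1 read 6.84 and 6.63 in siNegative, 9.56 and 9.17 in siPINC1/6 and 7.5 and 7.47 in siPINC cells without hormones. With hormones Plekhs1 read 2.23, 3.71 and 2.58 in siNegative, 4.83, 5.07 and 4.71 in siPINC1/6 and 3.05, 3.84 and 2.6 in siPINC cells. Plekhs1 stood at 7.49, 7.31 and 7.38 in LeGO-GFP, 11.25, 11.29 and 11.4 in LeGO-1/6 and 7.45, 7.48 and 7.0 in LeGO-DCR cells. LeGO-GFP and LeGO-DCR cells lay above siNegative −LH for Plekhs1, and siNegative +LH was not well above background. Its hormone difference was -4.5 (SE 0.33, adjusted p = 4.4e-05) in siPINC1/6 cells, and it fell at least 7.74-fold in siPINC cells. Lhfpl2 is a tetraspan membrane protein. Lhfpl2 read 9.45 and 9.31 in siNegative, 9.43 and 9.4 in siPINC1/6 and 9.19 and 9.14 in siPINC cells without hormones. With hormones Lhfpl2 read 4.97, 5.29 and 5.34 in siNegative, 6.1, 5.93 and 6.08 in siPINC1/6 and 5.84, 5.29 and 5.22 in siPINC cells. Lhfpl2 stood at 5.92, 5.07 and 5.05 in LeGO-GFP, 9.69, 9.6 and 9.7 in LeGO-1/6 and 5.42, 5.66 and 5.23 in LeGO-DCR cells. LeGO-1/6 lay just above the −LH arrays, and all other hormone-treated arrays were under 7. Lhfpl2 had a hormone difference of -3.38 (SE 0.18, adjusted p = 8.45e-06) in siPINC1/6 and -3.71 (SE 0.18, adjusted p = 6.32e-06) in siPINC cells.

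Of the 10 probes without a symbol, 4 were intergenic probes with mm9 positions given by the array design, at chr11:96111499-96126224 and chrX:90997595-91009570 and chrX:6982891-7008528 on the minus strand and at chr9:118291593-118324230 on the plus strand. The transcript AF209907 was among the 8 members with the largest hormone difference in siNegative cells. AF209907 read 10.02 and 10.17 in siNegative, 11.21 and 10.99 in siPINC1/6 and 10.43 and 10.45 in siPINC cells without hormones. With hormones AF209907 read 4.56, 5.09 and 5.31 in siNegative, 7.06, 6.97 and 6.83 in siPINC1/6 and 6.11, 5.1 and 5.71 in siPINC cells. AF209907 stood at 8.0, 7.79 and 7.77 in LeGO-GFP, 11.51, 11.52 and 11.49 in LeGO-1/6 and 8.02, 7.85 and 7.71 in LeGO-DCR cells. Its LeGO-1/6 arrays lay above the siNegative −LH arrays. The transcript ENSMUST00000098484 is given because it was among the 4 largest differences between the knockdowns without hormones. ENSMUST00000098484 read 7.22 and 7.23 in siNegative, 8.92 and 8.9 in siPINC1/6 and 7.32 and 7.26 in siPINC cells without hormones. With hormones ENSMUST00000098484 read 3.54, 4.54 and 4.07 in siNegative, 5.56, 5.06 and 4.56 in siPINC1/6 and 5.1, 4.91 and 4.9 in siPINC cells. ENSMUST00000098484 stood at 6.95, 6.61 and 6.7 in LeGO-GFP, 9.62, 9.64 and 9.55 in LeGO-1/6 and 6.8, 6.94 and 6.59 in LeGO-DCR cells. On these arrays siPINC1/6 −LH stood apart from the other −LH groups.

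For 9 of the member genes the array had another probe that was no member. Of these, 6 were well above background wherever the rule asks for it (for Tpx2, Fam149a, Nkain1, Hcar2, Ccdc88b and Mybl2), and all 6 fell with hormones in both siPINC1/6 and siPINC cells. The probes differed more in the overexpression arm: on the deposited scale the second probes of Tpx2, Fam149a and Mybl2 differed between LeGO-1/6 and LeGO-GFP cells by 0.17, 0.059 and 0.54, that of Nkain1 by 0.85, and those of Hcar2 and Ccdc88b by 2.74 and 1.96. The overexpression difference of Tpx2, Fam149a, Mybl2 and Nkain1 thus did not extend in its size to every probe of the gene.

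Whether the members differ between the 2 knockdowns was tested with and without hormones, on arrays the rule did not use. No member was called lower in siPINC1/6 than in siPINC cells in either state by limma, and at an unadjusted p under 0.05 there were 2 without and 0 with hormones. With hormones 24 of 70 were called higher, where 0.713% of all probes were called higher, 0.503% lower, and 48 members passed at an unadjusted p under 0.05. The median difference of the members was 0.55, against -0.0062 over all probes. In total 68 of 70 were above 0, and the 3 siPINC1/6 arrays lay wholly above the 3 siPINC arrays for 49. Among those called were Akr1c18 (1.74, SE 0.15, adjusted p = 0.00663) and Cxcl5 (1.57, SE 0.13, adjusted p = 0.00644). Il6 was at least 2.22-fold higher (adjusted p = 0.00723), as siPINC cells were not well above background for it. The dimmer Etv4 probe was also called, but it was not well above background on the siPINC arrays and on only 1 of the 3 siPINC1/6 arrays, so no size is given for it. The methods' t-test with Benjamini-Hochberg adjustment called 0 members in this comparison. Of the 10 cell cycle members 8 were called, with Mastl and Sgo2a not past the threshold, and the differences of the called ones ran from 0.42 (Hrob and Tpx2) to 0.73 (Mybl2). Of the wider list of 32 cell cycle genes 20 were called higher and none lower (median 0.43), among them Rrm2 (0.82) and Mcm5 (0.77). Leaving out siPINC1/6 +LH replicate 2 brought the 24 to 14, and leaving out any other of the 10 arrays gave between 16 and 22.

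Without hormones 17 of 70 members were called higher in siPINC1/6 than in siPINC cells, where 1.25% of all probes were called higher and 1.82% lower, and 42 members passed at an unadjusted p under 0.05. The median of the members was 0.44, against 0.0034 over all probes. The largest called differences were those of Cxcl5 (2.45, SE 0.16, adjusted p = 0.00104), Plekhs1 (1.88, SE 0.37, adjusted p = 0.0454), ENSMUST00000098484 (1.62, SE 0.28, adjusted p = 0.0291) and Akr1c18 (1.46, SE 0.18, adjusted p = 0.00998). None of the 10 cell cycle members was called in this state by limma, and 6 passed at an unadjusted p under 0.05. Of the 6 matrix members 4 were called: Cstdc5 (1.31), Plaur (1.01), Timp1 (0.80) and Serpine2 (0.51). The siPINC1/6 arrays lay wholly below the siPINC arrays for Etv5 (-0.25), Bok (-0.42) and Ptges3l (-0.39), none of them called, although Bok was called lower (adjusted p = 0.0418) without siPINC1/6 +LH replicate 2. The methods' t-test called 0 members here as well. Each group had 2 arrays, and without siPINC1/6 −LH replicate 1 or 2 the count was 9 or 10, and without siPINC −LH replicate 1 or 2 it was 9 or 11.

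In total 9 members were called higher in both states: Akr1c18, Cstdc5, Cxcl5, Epha2, the brighter Etv4 probe, Fxyd5, Oasl1, Sh2b2 and Timp1. A further 8 were called only without and 15 only with hormones, which is not a test of the difference between the states. That difference is the interaction given above, in which only Etv5 was called. The 2 comparisons share no arrays.

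**Figure D4:**
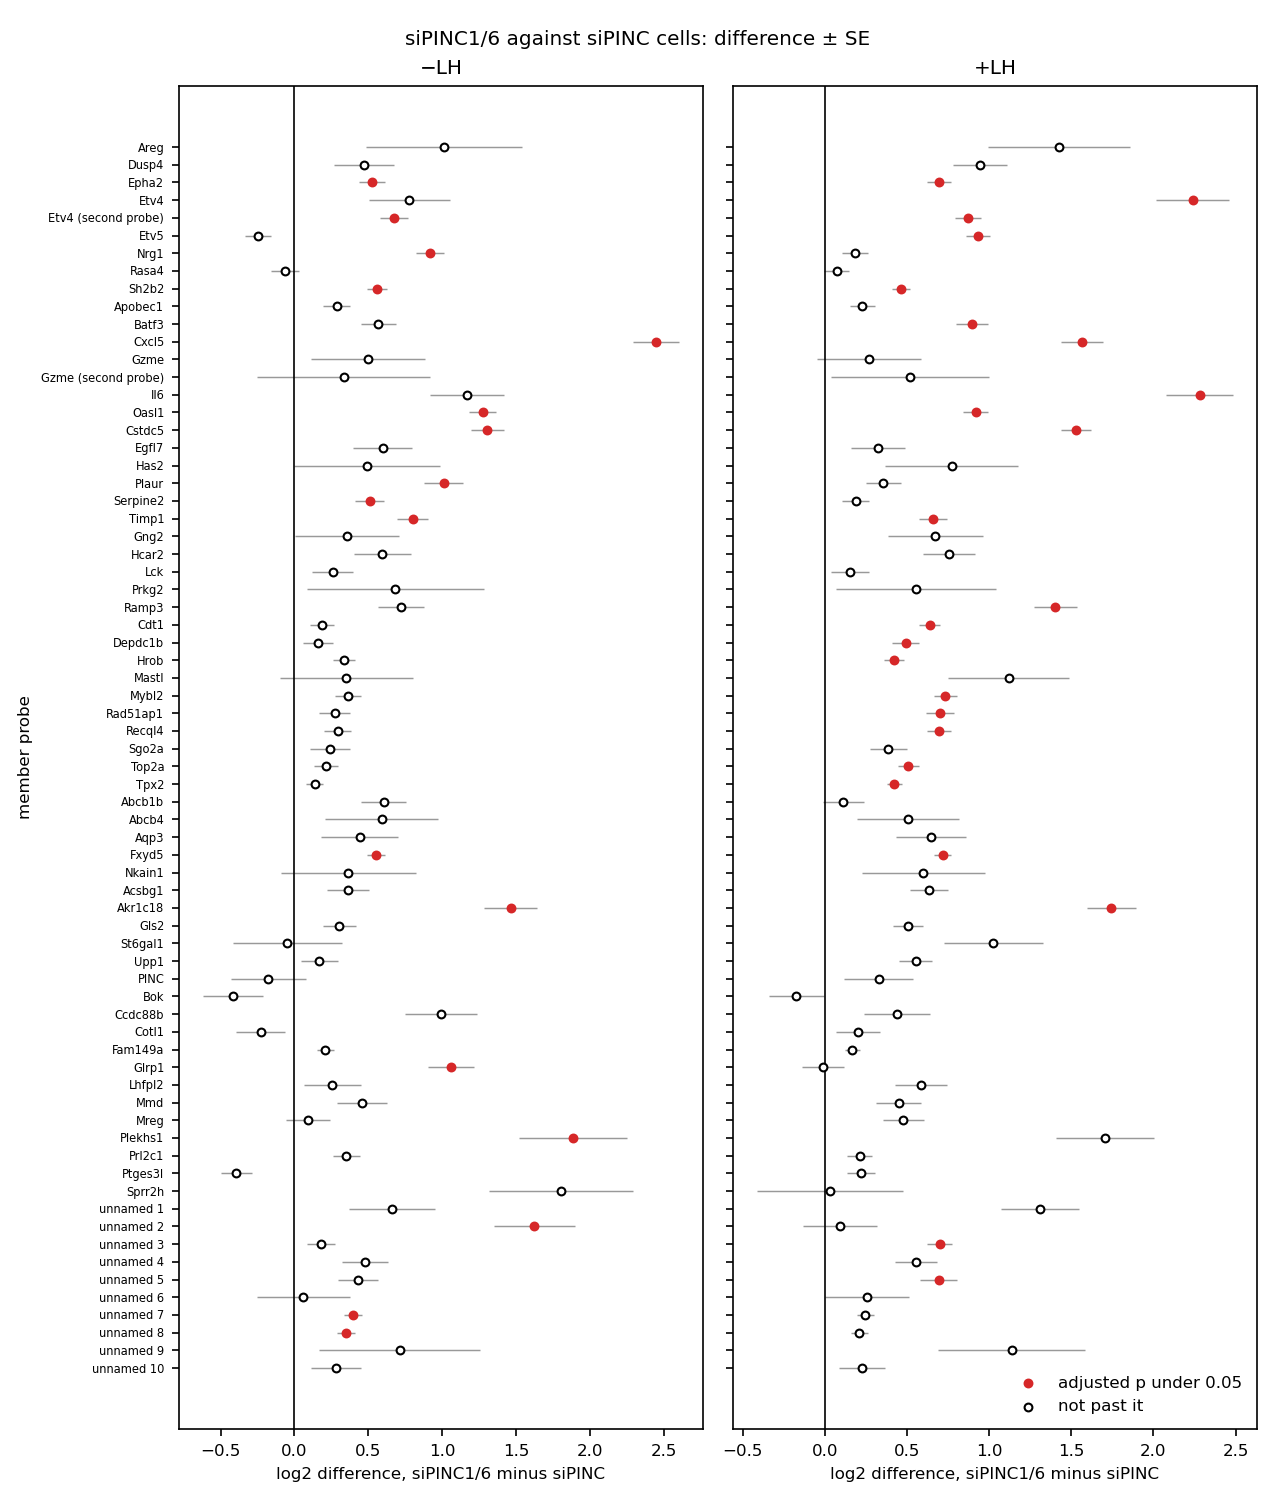
Difference between siPINC1/6 and siPINC cells (log2, points, with SE bars) for the 70 members without hormones (left) and with hormones (right); filled points passed an adjusted p of 0.05. With hormones 68 of 70 points lie above 0 and 24 are filled, and without hormones 63 lie above 0 and 17 are filled.

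The siNegative arrays were used by the rule, so the knockdowns are set beside them as a description only. Without hormones siPINC1/6 lay above siNegative with no overlap for 61 members and below for 7 (over all probes 22% and 25%), with a median difference of 0.55. The difference was at least 1 for 15 members, and the largest were those of Cxcl5 (2.83), Akr1c18 (2.81) and Plekhs1 (2.64). siPINC lay above siNegative for 37 members and below for 9 (over all probes 20.1% and 19.8%), with a median of 0.097. With hormones siPINC1/6 lay above siNegative with no overlap for 56 members and below for none (over all probes 8.39% and 10.3%), with a median of 0.82 and a difference of at least 1 for 31. For siPINC the counts were 28 above and none below (over all probes 9.53% and 10.9%), with a median of 0.27. The rule chose members that are low in siNegative +LH cells, so nothing is read from these counts.

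LeGO-DCR cells, which carry the deletion mutant without the conserved regions, share the LeGO-GFP and LeGO-1/6 arrays' hormones and virus. The difference of the members from LeGO-GFP had a median of 0.026 and ran from -0.69 to 0.91, with the groups overlapping for 64 of 70, 3 above (4.37% over all probes) and 3 below (5.99%). The 3 below were Areg (-0.58), Timp1 (-0.20) and Apobec1 (-0.15), and the 3 above were the brighter Gzme probe (0.73) and 2 intergenic probes. No member differed by 1 or more. Against LeGO-1/6 cells all 70 members lay lower with no overlap (20.7% over all probes), with a median difference of -2.96 (range -7.38 to -1.99). In both comparisons the arrays on the other side were used by the rule, which places LeGO-GFP low and LeGO-1/6 high.

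**Figure D5:**
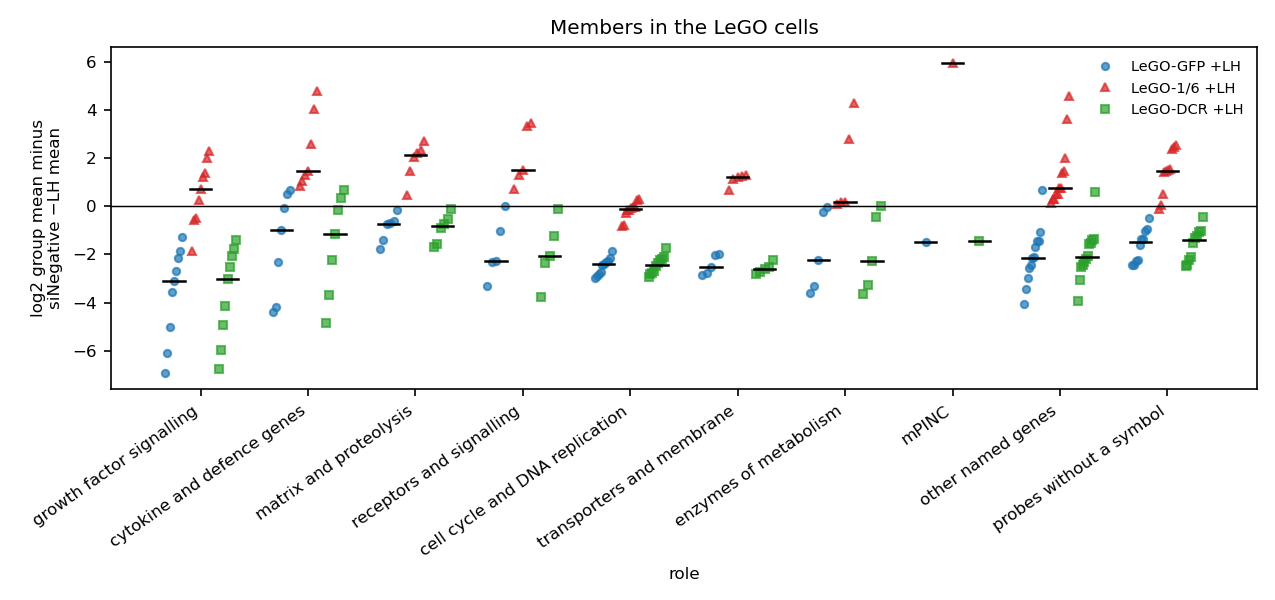
Group mean of each member minus its siNegative −LH mean (log2) by role, for LeGO-GFP (circles), LeGO-1/6 (triangles) and LeGO-DCR (squares) cells, with the median of each role (bar). LeGO-GFP and LeGO-DCR lie at like heights in each role, and LeGO-1/6 lies near 0 for the cell cycle group (median -0.11) and above it for the matrix group (median 2.14). The LeGO cells carry virus and the siNegative cells siRNA.

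The rule used both hormone-treated controls, so they are set beside each other as a description only. LeGO-GFP cells lay above siNegative +LH cells with no overlap for 53 members and below for 3 (over all probes 14.4% and 18.2%), with a median difference of 0.88 and a difference of at least 1 for 30. The difference of Cxcl5 was 3.95, and Il6, Plekhs1 and Cstdc5, not well above background in siNegative +LH cells, were at least 27.4-fold, 7.44-fold and 5.26-fold higher. Etv5 went the other way (-2.35). These groups differ in siRNA and virus, which cannot be told apart, and only replicate 1 of each lay on the same slide. The members were chosen to be low in both groups, so nothing is read from these counts.

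Against siNegative cells without hormones, LeGO-1/6 cells lay higher with no overlap for 57 members and lower for 9 (over all probes 22.4% and 30.5%), with a median difference of 1.21. They were higher by at least 1 for 38 members. Beside mPINC (5.96), the largest were Cxcl5 (4.76), Plekhs1 (4.58) and Akr1c18 (4.27). The 9 lower ones were 6 cell cycle members and the Etv5 and 2 Etv4 probes. The rule did not fix this difference, but it used both groups of arrays. The groups also differ in siRNA and virus.

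In the overexpression arm the contrast LeGO-1/6 minus LeGO-GFP also chose the members. In it 14.5% of all probes were called higher and 15.8% lower. Some of the lists that hold no member are given as examples. The milk and secretory list had 3 genes called higher and 10 lower of 18. The unfolded protein and stress response list had 14 of 15 called higher and 1 lower. With hormones 7 genes of that list rose and 5 fell in siPINC1/6 cells, and 7 rose and 4 fell in siPINC cells. Cholesterol synthesis had 16 of 17 genes called higher in LeGO-1/6 cells (median 0.93) and 16 of 17 called lower with hormones in both siPINC1/6 and siPINC cells (medians -1.20 and -0.99). Between LeGO-DCR and LeGO-GFP cells limma called 0.00718% of all probes higher and 0.0664% lower.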

How the data were processed

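RNA of HC11 cells was measured on 24 Agilent 1-colour mouse arrays (n = 2 or 3 per group). The authors deposited scanner intensity values from Agilent Feature Extraction 11.0.1.1 (processed signal, background-corrected within the array, with no normalization between arrays) and a log2 table, quantile normalized per the methods, used here for the rule and as an alternative. The array design names the mm9 build.

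Processed signals of 59305 non-control spots were log2 transformed, quantile normalized and, without outlier spots, averaged over each of 55681 probes. No spot was saturated. Symbols came from RefSeq accessions (26582 probes) or identifiers in the study's tables (25 probes). Promoter sequences were RefSeq windows (GRCm38.p6).

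The 10 siPINC1/6 and siPINC arrays were fitted by group means with limma 3.58.1 in R 4.3.3 (lmFit, eBayes), with Benjamini-Hochberg adjustment over all probes and a threshold of 0.05. The methods call the replicates biological duplicates and triplicates without saying more, and p-values measure only the spread between them. Contrasts that share arrays with the rule were described without a test. For lists, the siNegative and overexpression contrasts were fitted on 15 and 9 arrays, and the brightest probe stood for a gene. Genes shown on every array were the members in a list, the 8 largest in each rule difference and the 4 largest called per tested contrast in each direction (25 probes). The members and the 38 gene lists were chosen with earlier results of these data known, and role groups were written after the members were seen. Alternatives were other normalizations, deposited values, bright probes, other sample sets, a slide term, a trended prior, the methods' t-test, a replicate block and leaving out each array. On simulated data with 200 of 55571 probes changed in the siPINC1/6 +LH arrays, 76% of changes of 1 and 100% of changes of 2 (log2) were called for the hormone response in siPINC1/6 cells, 67% and 96% for the interaction, and 83% and 100% for siPINC1/6 minus siPINC with hormones. The changed probes were drawn from the brighter ones, the noise was independent, and all other probes had no difference between groups. These rates thus do not describe members near background. Array number limits the precision. Summaries used Python 3.11.15.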

Additional observations from a re-analysis of the deposited data

Results flagged for a closer look

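Etv5 was the 1 member of 70 called in the test of the difference between the hormone responses of siPINC1/6 and siPINC cells. Over all probes 0.736% were called with the siPINC1/6 response the higher and 0.445% with it the lower. A count of 1 in 70 is near these shares, and with a replicate block 0 members were called. For Etv5 the siPINC1/6 response minus the siPINC response was 1.18 on the log2 scale (SE 0.11, limma adjusted p = 0.00798), with falls of 2.00 and 3.18. All 3 siPINC1/6 +LH arrays lay above all 3 siPINC +LH arrays, and both siPINC1/6 −LH arrays lay below both siPINC −LH arrays.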

How the results depend on the processing

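The number of members depended on the scale of the values: the rule gave 194 members with quantile-normalized processed signals, 189 with the 75th percentile, 32 with normexp, 259 at a threshold of 1.5 and 25 at 2.5. It gave 82 within slides, 70 without the background mark or with the mark on any spot, and between 66 and 76 when an array was left out. The hormone falls held in 67 to 70 members in siPINC1/6 cells and in 69 or 70 in siPINC cells under every alternative run, between 67 and 70 and always 70 when an array was left out. For siPINC1/6 minus siPINC without hormones (17 called) the count was 32 with normexp, 26 with bright probes and 0 with the methods' t-test after Benjamini-Hochberg adjustment, and between 9 and 16 without an array. With hormones (24 called) it was 0 with the methods' t-test and between 14 and 22 without an array. For the interaction (1 called) it was 8 with normexp, 5 with bright probes, 5 with 24 arrays, 8 with 24 arrays and a slide term, 5 with a trended prior, and 1 or 2 without an array. The t-test was not run for the interaction. No result changed direction, but Bok, not called for siPINC1/6 minus siPINC without hormones, was called lower (-0.42, adjusted p = 0.0418) without siPINC1/6 +LH replicate 2. A stricter threshold leaves fewer members by its definition. The cause of the other shifts was not tested.

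The arrays share replicate numbers across groups, but 13 same-numbered pairs correlated between -0.17 and 0.20 in their deviations from the group means and only 4 over 0.1, so the numbers were not taken as pairs. With a replicate block the counts were 70 and 70 for the hormone falls, 0 for the interaction, 8 for siPINC1/6 minus siPINC without and 1 with hormones.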
